A study of Mus musculus with 10 samples.

Results

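Genes of the lysosome and of its proton pump, the vacuolar H+-ATPase (V-ATPase), were followed through cultures of mouse olfactory epithelium that had received short hairpins against the Polycomb subunits CBX8 or CBX7. The genes were chosen by name: 36 lysosomal genes, and every gene symbol that begins with Atp6v followed by 0 or 1 or with Atp6ap, which added 27. Together they made 63 of the 41091 gene identifiers counted. The named genes were 28 hydrolases, 3 other proteins of the lumen and 5 membrane proteins. Of the 27 pattern symbols, 13 belong to the cytosolic V1 sector, 9 to the membrane-bound V0 sector and 2 to accessory proteins, and the other 3 (Atp6v1fnb, Atp6v0c-ps2 and Atp6ap1l) are no subunits. After the filter on low counts 58 genes were tested. Those not tested were Atp6v1g3, Atp6v1e2 and the 3 that are no subunits, each under 0.4 CPM (counts scaled to a common library size) in every library.

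All cultures came from adult C57BL6 mice whose olfactory epithelium had been lesioned with methimazole and collected 9 days later, then dissociated and grown attached to gelatin with EGF, FGF2 and heparin. They differed in the lentiviral short hairpin: anti-Cbx8 (shCBX8 1, 2 and 6), anti-Cbx7 (shCBX7 1, 2 and 5) or a non-targeting scramble (shCTR 1, 2, 5 and 6). CBX8 and CBX7 are chromodomain subunits of Polycomb repressive complex 1, and the series asked what their loss does to the transcriptome of this tissue. The libraries are called biologic replicates with no animal or culture named. The p-values therefore reflect only how far these libraries differed within a group, which may be technical. No selection of a cell type before sequencing is described.

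The lysosome breaks down proteins, glycans and lipids with acid hydrolases, most of which reach it with a mannose 6-phosphate tag. The V-ATPase keeps its lumen acid: the V1 sector splits ATP and turns a rotor, and the V0 sector carries protons across the membrane. Several subunits exist as isoforms whose use differs between tissues, with forms known from kidney, osteoclast or neuron beside forms found in most cells. Many lysosomal and V-ATPase genes carry near their start the motif bound by the transcription factor TFEB and its relatives, whose core is the palindrome TCACGTGA.

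Promoter windows of RefSeq genes (GRCm38.p6, from 250 bases before to 50 bases after each start) were matched by symbol for 51 of the 63 genes. The palindrome TCACGTGA, which reads the same on both strands, stood in a window of 6 of these 51 genes (11.8%), against 1.12% of all 27025 genes. The 6 were Ctsa, Ctsd, Gla, Atp6v1a, Atp6v0d1 and Atp6v0e. A gene counted when any window of its symbol held the letters, so a gene with more windows had more chances. The shorter CACGTG, which TCACGTGA contains, stood in 13 of the 51 (25.5%) and in 8.09% of all windows. Shown here are the 250 bases before a RefSeq start of 3 hydrolases and 1 pump subunit that share the palindrome, in capitals. For each gene the first window that holds the palindrome was taken, so the start shown was chosen by the motif. The outermost GENCODE starts of Ctsa (chr2:164832873) and Atp6v1a (chr16:44139705) lie upstream of the starts used here. Of these genes 1 (Gla) passed the test described below, and no difference between them was tested. Each is 5′ to 3′ on the gene's own strand, with coordinates at chrX:134601006-134601255 (minus strand) for Gla, chr2:164833523-164833772 (plus) for Ctsa, chr7:142387828-142388077 (minus) for Ctsd and chr16:44139260-44139509 (minus) for Atp6v1a.
Gla: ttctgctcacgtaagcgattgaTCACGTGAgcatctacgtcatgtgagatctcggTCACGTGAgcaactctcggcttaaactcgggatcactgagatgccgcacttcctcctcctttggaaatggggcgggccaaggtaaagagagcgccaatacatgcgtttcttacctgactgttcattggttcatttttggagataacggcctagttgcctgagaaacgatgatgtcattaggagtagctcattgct
Ctsa: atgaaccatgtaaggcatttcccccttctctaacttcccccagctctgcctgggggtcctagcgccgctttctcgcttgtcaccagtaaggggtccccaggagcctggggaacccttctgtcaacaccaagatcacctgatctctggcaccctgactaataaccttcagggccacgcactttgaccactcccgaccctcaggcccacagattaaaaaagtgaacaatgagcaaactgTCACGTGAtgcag
Ctsd: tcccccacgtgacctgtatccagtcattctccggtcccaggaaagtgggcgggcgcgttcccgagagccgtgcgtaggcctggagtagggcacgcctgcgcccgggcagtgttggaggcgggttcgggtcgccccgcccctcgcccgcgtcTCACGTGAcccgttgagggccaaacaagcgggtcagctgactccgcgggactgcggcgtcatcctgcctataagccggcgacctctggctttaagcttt
Atp6v1a: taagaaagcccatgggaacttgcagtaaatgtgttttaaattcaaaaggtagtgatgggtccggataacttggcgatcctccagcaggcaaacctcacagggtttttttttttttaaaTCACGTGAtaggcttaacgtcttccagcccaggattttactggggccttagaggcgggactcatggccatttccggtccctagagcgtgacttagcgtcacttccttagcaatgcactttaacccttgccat
The first base of the palindrome lay at −228 and −195 in Gla, at −13 in Ctsa, at −99 in Ctsd and at −132 in Atp6v1a, counted back from the RefSeq start used. Of the 6 genes with it, 1 (Gla) passed the test in shCBX8 against shCTR. Among the 13 with CACGTG, 3 were called higher (Gla, Glb1 and Atp6v0b) and 0 lower, where 17.0% of all tested genes were called higher and 15.9% lower, too few to read anything from the count. A match of letters is a description of the window and not a shown binding site.

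Counts assigned to genes ran from 22763014 to 50463172 per library. Cbx8 had 4.98, 5.14 and 4.71 CPM in shCBX8 libraries, against 12.4, 15.9, 10.2 and 10.8 CPM in shCTR libraries, so the groups did not overlap (log2 fold change −1.31 ± 0.22 SE, adjusted p = 0.00416 by edgeR's quasi-likelihood test; exact two-sided permutation p = 0.0286, the smallest that 35 splits allow). Cbx7 had 3.64, 8.01 and 13.1 CPM in shCBX7 1, 2 and 5, against 17.6, 16.4, 13.4 and 5.29 CPM in shCTR, and did not pass (−0.67 ± 0.48, adjusted p = 0.929; exact permutation p = 0.314). The library labelled shCBX7 5 thus held more Cbx7 than the library labelled shCTR 6. The shCTR libraries also held more background: unmapped reads were 5.03 to 7.81% in the shCBX8 and shCBX7 libraries and 9.83 to 21.7% in shCTR, and reads on the strand opposite olfactory and vomeronasal receptor genes were 10.5 to 25.4 CPM in the shCBX8 and shCBX7 libraries and 30.7 to 103 CPM in shCTR, lowest in shCTR 6. Since these ranges did not overlap, background and hairpin cannot be told apart across all libraries. Fibroblast markers (10 genes) summed to 216 to 3218 CPM in shCBX8, 5548 to 18386 CPM in shCBX7 and 5998 to 29053 CPM in shCTR, with none at 0. Called lower in shCBX8 than in shCTR were 3 of the 10 (Col1a1, Col5a1 and Fbln1), where 15.9% of all tested genes were called lower. Sustentacular markers (6 genes) summed to 3554 to 9897 CPM in shCBX8, 112 to 1663 CPM in shCBX7 and 219 to 1533 CPM in shCTR. Krt8 and Krt18, keratins of simple epithelia in general, made up most of that sum in shCBX8 and were the members of the list called higher than in shCTR, while Cyp2g1, Cyp1a2, Ermn and Cbr2 were not called. That was 2 of the 5 tested in this list, where 17.0% of all tested genes were called higher. The 5 markers of horizontal basal cells, among them Krt5, Krt14 and Trp63, were each detected in every group, summing to 1019 to 1179 CPM in shCBX8, 283 to 947 CPM in shCBX7 and 305 to 1075 CPM in shCTR. Trp63 was called higher in shCBX8 than in shCTR (adjusted p = 0.0116) and than in shCBX7 (adjusted p = 0.00741, both by edgeR's test). The other 4 were not called in either comparison, where all genes gave 17.0% and 15.3% called higher. The 7 markers of olfactory neurons summed to 23.6 to 82.3 CPM in shCBX8, 56.1 to 144 CPM in shCBX7 and 52.0 to 116 CPM in shCTR, mostly Gap43 and Adcy3, with Omp, Cnga2 and Stmn3 under 1 CPM in every library. Of the 5 tested, 1 (Gnal) was called higher in shCBX8 than in shCTR and 4 were not called.

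Levels differed widely among the genes. Per kilobase of exon and averaged over the 10 libraries, the highest level was that of Ctsd (cathepsin D, an aspartic protease) at 1473 CPM, followed by Psap (prosaposin, the precursor of the saposins that help sphingolipid breakdown) at 563 CPM and Lamp1 (a heavily glycosylated membrane protein) at 408 CPM. The cysteine proteases Ctsl and Ctsb came next at 224 and 216 CPM. The highest pump genes were Atp6ap1 at 116 CPM and Atp6v1g1 at 102 CPM. At the other end stood the tested isoforms Atp6v1b1 at 0.07 CPM and Atp6v0a4 at 0.08 CPM. Ctsd, Ctsb and Ctsl together gave 50.4 to 75.4% of the summed hydrolase CPM of a library, so that sum mostly follows these 3 genes. Macrophages are rich in lysosomes. Of 15 immune markers 10 were under 1 CPM in every shCBX8 library, 11 in every shCBX7 library and 10 in every shCTR library, C1qa, C1qb and C1qc among them. The 15 summed to 97.2 to 173 CPM in shCBX8, 15.9 to 62.2 CPM in shCBX7 and 31.8 to 51.0 CPM in shCTR. Cd14 made up most of the sum in shCBX8, with 91.2 to 159 CPM there, 13.4 to 32.2 CPM in shCBX7 and 26.2 to 36.5 CPM in shCTR. Lyz2 ran from 0.901 to 23.9 CPM over all libraries. Cd14 and Aif1 (under 1 CPM in every library) were called higher in shCBX8 than in shCTR. That was 2 of the 10 tested, where 17.0% of all tested genes were called higher. The part of macrophages in the results below was not tested.

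In shCBX8 against shCTR, genes of the lysosome moved in both directions while those of the pump that moved were all higher. Of the 58 tested genes 15 were called higher and 6 lower, where all 16669 tested genes gave 17.0% called higher, 15.9% called lower and 32.9% called in either direction. Called higher were 5 glycosidases (Neu1, Manba, Gusb, Gla, Glb1), the ceramidase Asah1, the cholesterol exporter Npc1 and 8 V-ATPase genes. Called lower were Fuca1, Ids, Smpd1, Lipa, Lamp2 and Scarb2, none of which is a pump gene. The 28 hydrolases alone counted 6 higher and 4 lower, with a median log2 fold change of −0.01, equal to the −0.01 of all genes. The 22 tested V-ATPase genes counted 8 higher and 0 lower, with a median of 0.41. When libraries were scaled by their size alone, 19 of the 58 were higher and 4 lower, the median of all genes was 0.17 and the background was 22.6% higher and 11.0% lower. In 26 of the 58 genes the groups did not overlap, against 42.4% of all genes.

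**Figure D1:**
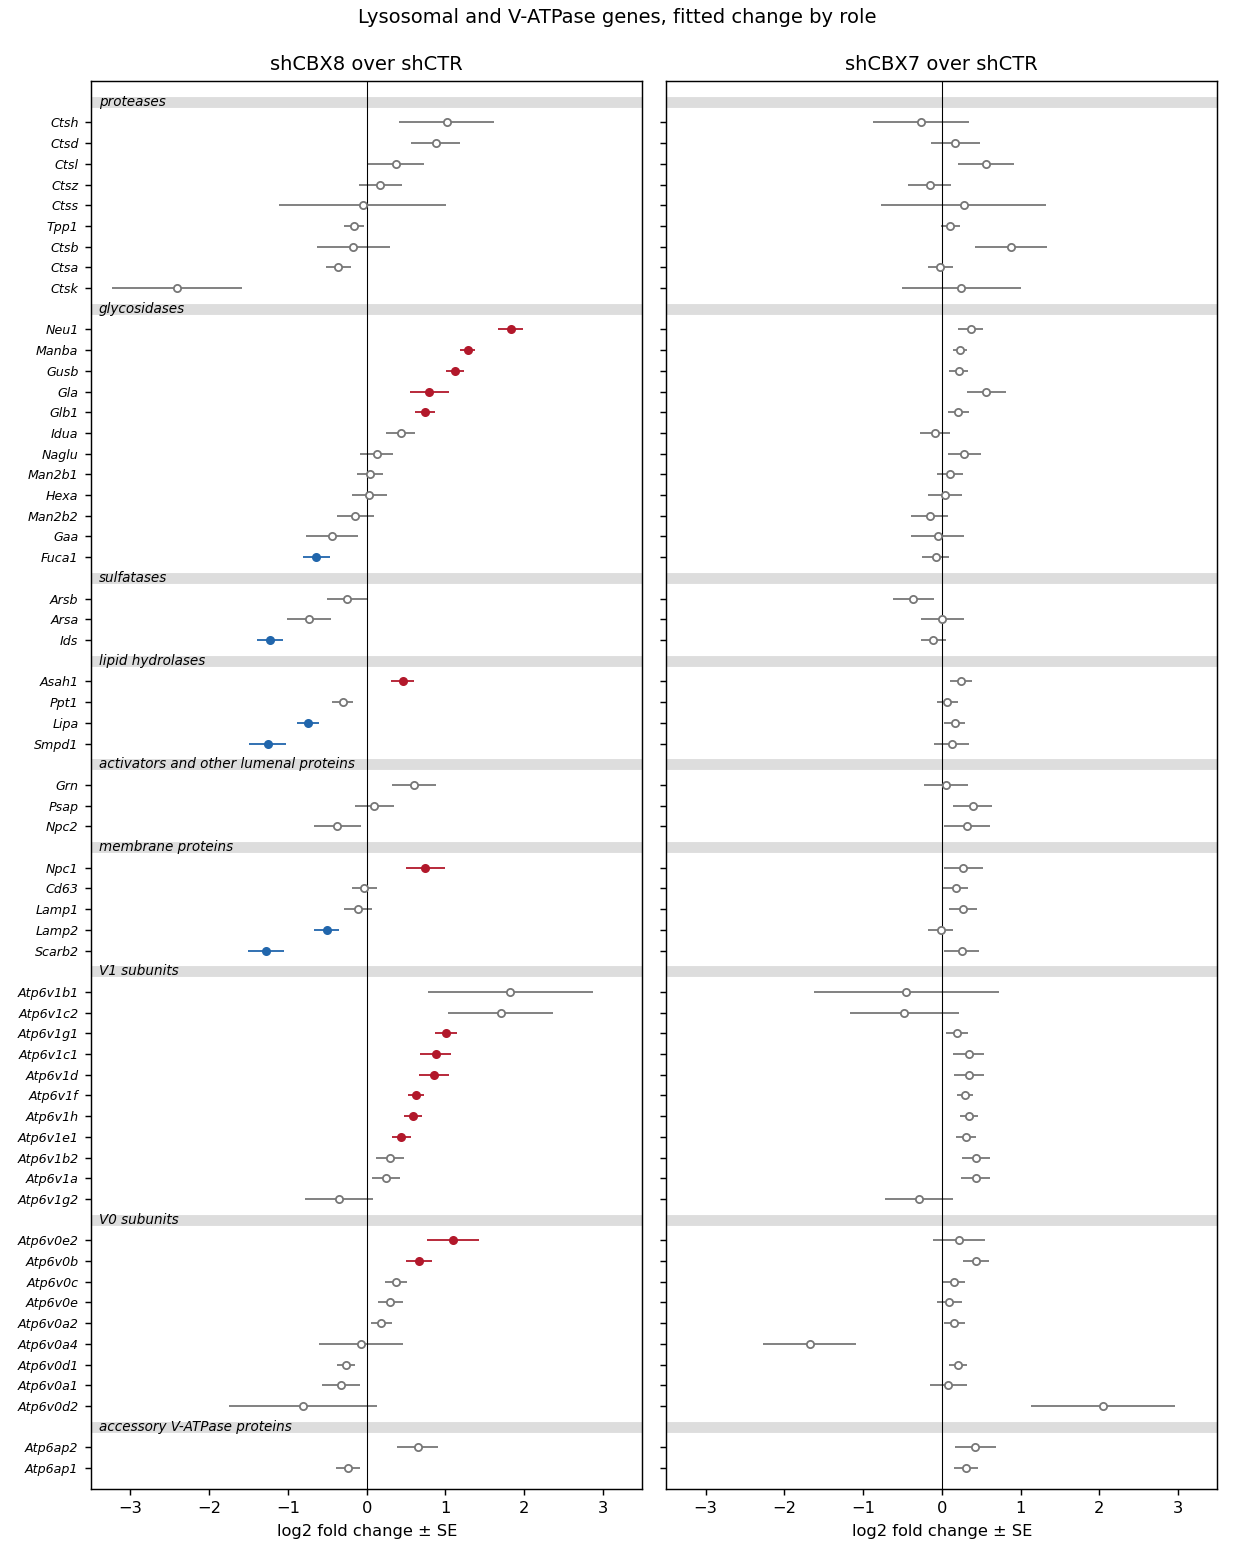
Log2 fold change with its standard error for each of the 58 tested genes (rows, grouped by role), shCBX8 over shCTR on the left and shCBX7 over shCTR on the right. Filled red points were called higher, filled blue points lower, and open points were not called: 15 and 6 are filled on the left and 0 on the right.

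Among the glycosidases, which trim sugars from glycoproteins and glycolipids, 5 of 12 rose and 1 fell. Of all tested genes 17.0% were called higher and 15.9% lower. The sialidase Neu1 (chr17:34931253-34935953, plus strand), which removes terminal sialic acid, had 115, 105 and 139 CPM in shCBX8 1, 2 and 6, against 32.6, 27.1, 35.7 and 39.5 CPM in shCTR 1, 2, 5 and 6. All shCBX8 libraries were well above all shCTR libraries, and the level was 3.55-fold higher (log2 fold change 1.83 ± 0.16 SE, adjusted p = 0.000751). The beta-mannosidase Manba (chr3:135485611-135571404, plus strand) had 103, 120 and 106 CPM in shCBX8 and 43.7, 47.4, 44.3 and 45.3 CPM in shCTR. The spread within each group was small beside the gap between them (1.28 ± 0.09, adjusted p = 0.000743). Gusb (chr5:129989011-130003049, minus strand), the beta-glucuronidase, had 159, 146 and 178 CPM in shCBX8 and 76.2, 80.9, 76.7 and 62.6 CPM in shCTR, again without overlap (1.12 ± 0.12, adjusted p = 0.00124). The beta-galactosidase Glb1 had 124, 151 and 143 CPM in shCBX8 and 80.8, 94.1, 80.1 and 79.4 CPM in shCTR (0.74 ± 0.13, adjusted p = 0.00447). The lowest shCBX8 library thus lay above the highest shCTR library.

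Gla, the alpha-galactosidase that clears globotriaosylceramide, and Fuca1, the alpha-fucosidase, passed by less. Gla had 84.5, 117 and 77.6 CPM in shCBX8 and 50.1, 37.2, 54.1 and 73.1 CPM in shCTR (0.80 ± 0.25, adjusted p = 0.0363), with shCTR 6 close to the lowest shCBX8 library. With the replicate number as a block it did not pass (0.74, adjusted p = 0.0925). Fuca1 had 71.1, 87 and 71.8 CPM in shCBX8 and 109, 148, 116 and 104 CPM in shCTR (−0.64 ± 0.17, adjusted p = 0.0207). The other 6 glycosidases (Idua, Naglu, Man2b1, Hexa, Man2b2 and Gaa) did not pass, with log2 fold changes from −0.44 for Gaa to 0.43 for Idua.

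Of the 3 sulfatases 1 fell, and of the 4 lipid hydrolases 2 fell and 1 rose. All tested genes gave 15.9% lower and 17.0% higher. Ids, the iduronate sulfatase of heparan and dermatan sulfate breakdown (chrX:70343069-70365084, minus strand), had 27.5, 29.3 and 21.4 CPM in shCBX8 and 59.9, 62.4, 49.8 and 72.8 CPM in shCTR. Every shCBX8 library was below every shCTR library (−1.23 ± 0.17, adjusted p = 0.00223). Arsa, which removes sulfate from sulfatide, averaged 38.6 ± 9.9 CPM in shCBX8 and 64.0 ± 16.5 CPM in shCTR (SD, n = 3 and 4; −0.73 ± 0.28, adjusted p = 0.0699 without and 0.0173 with the replicate block), and Arsb gave −0.24 ± 0.26. Smpd1, the acid sphingomyelinase (chr7:105554360-105558389, plus strand), had 36.8, 60.3 and 40.2 CPM in shCBX8 and 103, 141, 89.9 and 104 CPM in shCTR, without overlap (−1.26 ± 0.23, adjusted p = 0.00569). Lipa, the acid lipase that splits cholesteryl esters and triglycerides (chr19:34492318-34527474, minus strand), had 48.3, 67.0 and 50.5 CPM in shCBX8 and 90.5, 93.9, 98.5 and 87.2 CPM in shCTR (−0.74 ± 0.14, adjusted p = 0.00545). In both genes shCBX8 2 was the highest of its group. The acid ceramidase Asah1 went the other way, with 548, 500 and 509 CPM in shCBX8 and 423, 305, 423 and 363 CPM in shCTR (0.46 ± 0.14, adjusted p = 0.0361), and Ppt1, the palmitoyl-protein thioesterase, did not pass (−0.31 ± 0.13, adjusted p = 0.101).

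**Figure D2:**
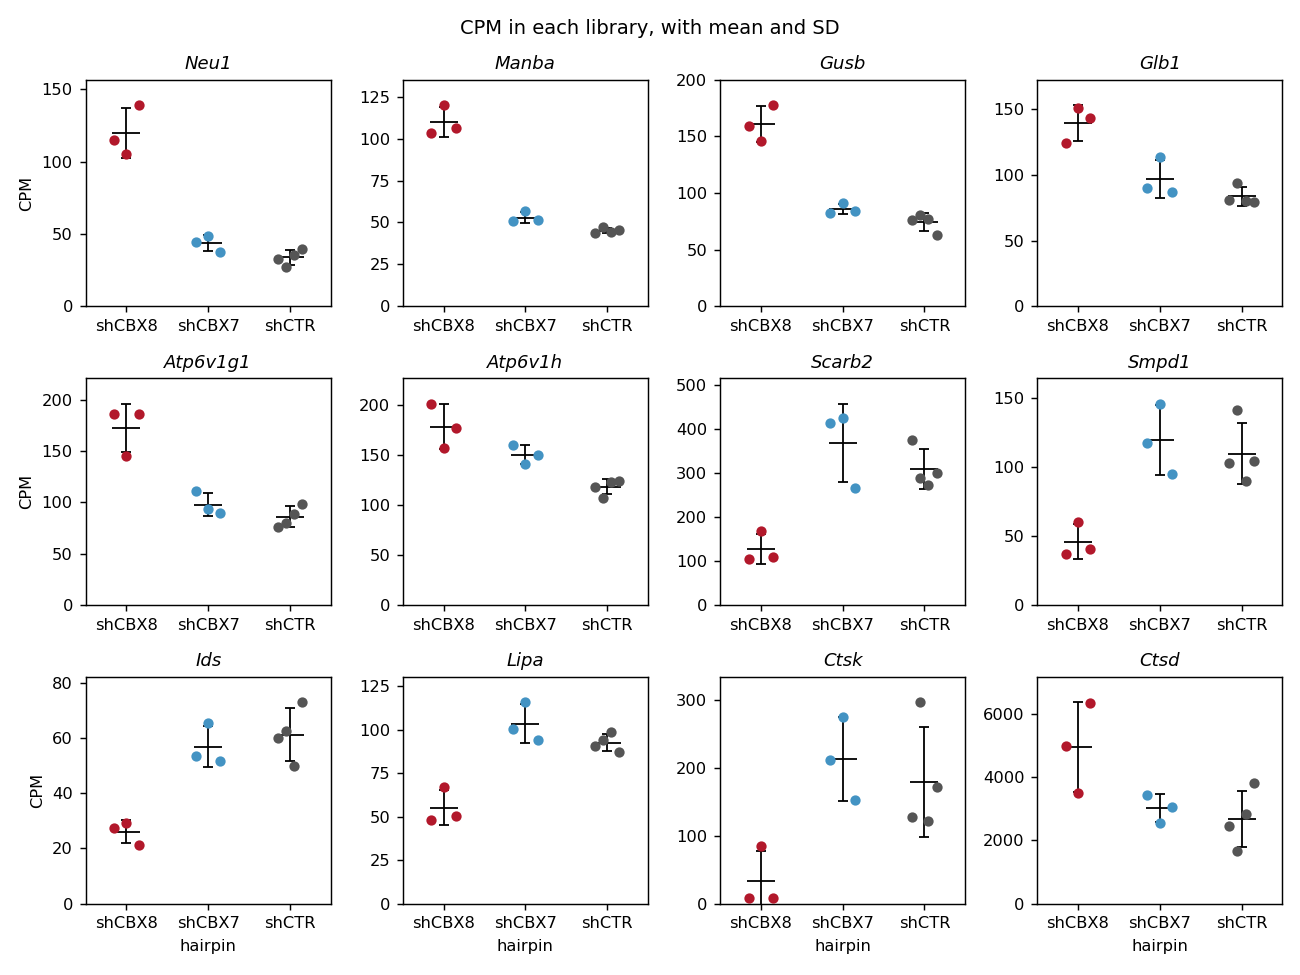
CPM of 12 genes in each library (points), with the group mean and its SD (bars), for shCBX8, shCBX7 and shCTR from left to right; each panel has its own axis from 0. Neu1, Manba, Gusb, Glb1 and Atp6v1g1 lie higher in the 3 shCBX8 libraries than in all others, Scarb2, Smpd1, Ids and Lipa lie lower, and in Ctsk a single shCBX8 library at 85.1 CPM lies apart from the 2 near 8 CPM.

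None of the 9 proteases passed, where 32.9% of all tested genes were called in either direction. Ctsk, the collagen-cleaving cathepsin K best known from osteoclasts, had 8.38, 85.1 and 8.21 CPM in shCBX8 1, 2 and 6, against 128, 297, 123 and 172 CPM in shCTR 1, 2, 5 and 6. All shCBX8 libraries were below all shCTR libraries, but shCBX8 2 was far above the other shCBX8 libraries, and the test was missed narrowly (−2.41 ± 0.83, adjusted p = 0.0505). Without shCBX8 2 the change was −4.44 with adjusted p = 0.00062, and with the replicate block −3.20 with adjusted p = 0.0111. Leaving out shCBX8 2 keeps shCBX8 1 and 6, the pair of libraries of 1 group that differed least. Their chi-square per degree of freedom was 28.1, against 242 and 265 with shCBX8 2. The adjusted p-values without shCBX8 2, here and for Ctsd, Ctsa and Npc2 below, lean on the closeness of that pair. Within shCBX8 the fibroblast marker sum was also highest in library 2, with 301, 3218 and 216 CPM in shCBX8 1, 2 and 6. Its highest value of all, 29053 CPM, was in shCTR 2, where Ctsk was also highest. Elsewhere the orders differed. shCTR 6 had a lower sum than shCTR 1 (5998 against 9165 CPM) but more Ctsk. shCBX7 1 had a lower sum than shCBX7 5 (5548 against 6964 CPM) but more Ctsk (212 against 152 CPM). The part of fibroblasts in the level of Ctsk was not tested, and in bulk samples fewer cells of a type and less RNA per cell cannot be told apart. Of 5 osteoclast markers Calcr, Ocstamp, Dcstamp and Oscar were under 1 CPM in every library, and Acp5 had 2.58 to 6.70 CPM in shCBX8, 0.610 to 3.32 CPM in shCBX7 and 1.01 to 4.81 CPM in shCTR; their part in the level of Ctsk was not tested.

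Ctsd, the most abundant of the set, had 4969, 3499 and 6342 CPM in shCBX8 and 2442, 1659, 2838 and 3801 CPM in shCTR. shCTR 6 reached above shCBX8 2, so the groups overlapped (0.88 ± 0.31, adjusted p = 0.0553 without and 0.0146 with the replicate block, and 0.0297 without shCBX8 2). Ctsh, an aminopeptidase-like cathepsin, averaged 143 ± 19 CPM in shCBX8 and 70.8 ± 41.5 CPM in shCTR (SD, n = 3 and 4; 1.01 ± 0.61, adjusted p = 0.22 without and 0.0117 with the block). Ctsa, the protective protein that holds Neu1 and Glb1 in a complex, gave 187, 293 and 211 CPM in shCBX8 and 302, 323, 281 and 274 CPM in shCTR (−0.36 ± 0.16, adjusted p = 0.108, and −0.57 with adjusted p = 0.0105 without shCBX8 2). Its log2 fold change was thus below 0, while those of Neu1 and Glb1 were above. Ctsb, Ctsl, Ctss, Ctsz and the tripeptidyl peptidase Tpp1 lay between −0.17 and 0.37, all with overlapping groups.

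The other proteins of the lumen did not pass: Grn, the growth factor precursor progranulin, gave 0.60 ± 0.28 (adjusted p = 0.126 without and 0.0123 with the replicate block), Psap 0.10 ± 0.25, and the cholesterol carrier Npc2 −0.37 ± 0.30 (−0.91 with adjusted p = 0.00579 without shCBX8 2). Of the 5 membrane proteins 1 rose and 2 fell, where all tested genes gave 17.0% higher and 15.9% lower. Scarb2, also known as LIMP-2, the receptor that brings glucocerebrosidase to the lysosome (chr5:92441314-92506833, minus strand), had 105, 168 and 110 CPM in shCBX8 and 375, 290, 273 and 301 CPM in shCTR. The highest shCBX8 library stayed far below the lowest shCTR library (−1.28 ± 0.23, adjusted p = 0.0053). Lamp2, needed for the fusion of lysosomes with autophagosomes, had 612, 646 and 520 CPM in shCBX8 and 935, 937, 796 and 706 CPM in shCTR (−0.51 ± 0.16, adjusted p = 0.037). Npc1, which passes on the cholesterol that Npc2 delivers, had 127, 142 and 136 CPM in shCBX8 and 58.6, 58.9, 82.5 and 124 CPM in shCTR (0.74 ± 0.25, adjusted p = 0.0452), with shCTR 6 just below the shCBX8 libraries. Lamp1 gave −0.11 ± 0.18 (0.061 with scaling by library size alone) and the tetraspanin Cd63 −0.03 ± 0.16, neither called.

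The V1 sector held most of the pump genes that rose, 6 of 11 tested, with a median log2 fold change of 0.63 and 10 of 11 above 0. Of all 16669 tested genes 17.0% were called higher and 8200 were above 0. Atp6v1g1, the broadly used G subunit of the peripheral stalk (chr4:63544772-63550750, plus strand), had 186, 145 and 186 CPM in shCBX8 and 75.8, 79.9, 89.1 and 98.9 CPM in shCTR. The groups stood clearly apart (a 2.01-fold level, SE of the log2 fold change 0.14, adjusted p = 0.00233). Atp6v1f, a subunit of the central rotor (chr6:29467718-29470512, plus strand), had 112, 91.3 and 112 CPM in shCBX8 and 68.8, 64.3, 68.0 and 71.4 CPM in shCTR (0.63 ± 0.10, adjusted p = 0.00397). Atp6v1h, which links the sectors and is needed for activity, had 202, 157 and 177 CPM in shCBX8 and 118, 108, 123 and 124 CPM in shCTR (0.59 ± 0.11, adjusted p = 0.0064). Atp6v1d, another rotor subunit, had 217, 161 and 192 CPM in shCBX8 and 98.2, 76.3, 109 and 136 CPM in shCTR (0.86 ± 0.19, adjusted p = 0.0115). In each of these genes the groups did not overlap, and shCBX8 2 was the lowest of the shCBX8 libraries. The peripheral stalk subunits Atp6v1c1 (0.87 ± 0.20, adjusted p = 0.0116) and Atp6v1e1 (0.44 ± 0.12, adjusted p = 0.0247) rose too. The catalytic subunit Atp6v1a (0.24 ± 0.18) and its partner Atp6v1b2 (0.29 ± 0.18) did not pass.

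In the V0 sector 2 of 9 genes rose and 0 fell, with a median of 0.19. All tested genes gave 17.0% higher, 15.9% lower and a median of −0.01. Atp6v0b, a proteolipid of the rotor ring, had 190, 146 and 205 CPM in shCBX8 and 109, 96.1, 113 and 138 CPM in shCTR (0.66 ± 0.16, adjusted p = 0.0159). Atp6v0e2, one of the small e subunits, had 46.4, 31.6 and 49.1 CPM in shCBX8 and 21.8, 12.3, 26.2 and 18.9 CPM in shCTR (1.10 ± 0.33, adjusted p = 0.0328). Atp6v0c, the main proteolipid, whose reads are uncertain because pseudogene copies share its sequence, gave 0.37 ± 0.14 (adjusted p = 0.0603 without and 0.045 with the replicate block). Atp6v0d1, which joins the ring to the rotor, stood at 85.5 ± 7.3 CPM in shCBX8 and 103 ± 12 CPM in shCTR (SD, n = 3 and 4; −0.26 ± 0.12, adjusted p = 0.105). Of the accessory proteins, Atp6ap2, the prorenin receptor, gave 0.65 ± 0.26 (adjusted p = 0.0809 without and 0.0455 with the block) and Atp6ap1 −0.24 ± 0.15 (adjusted p = 0.246).

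**Figure D3:**
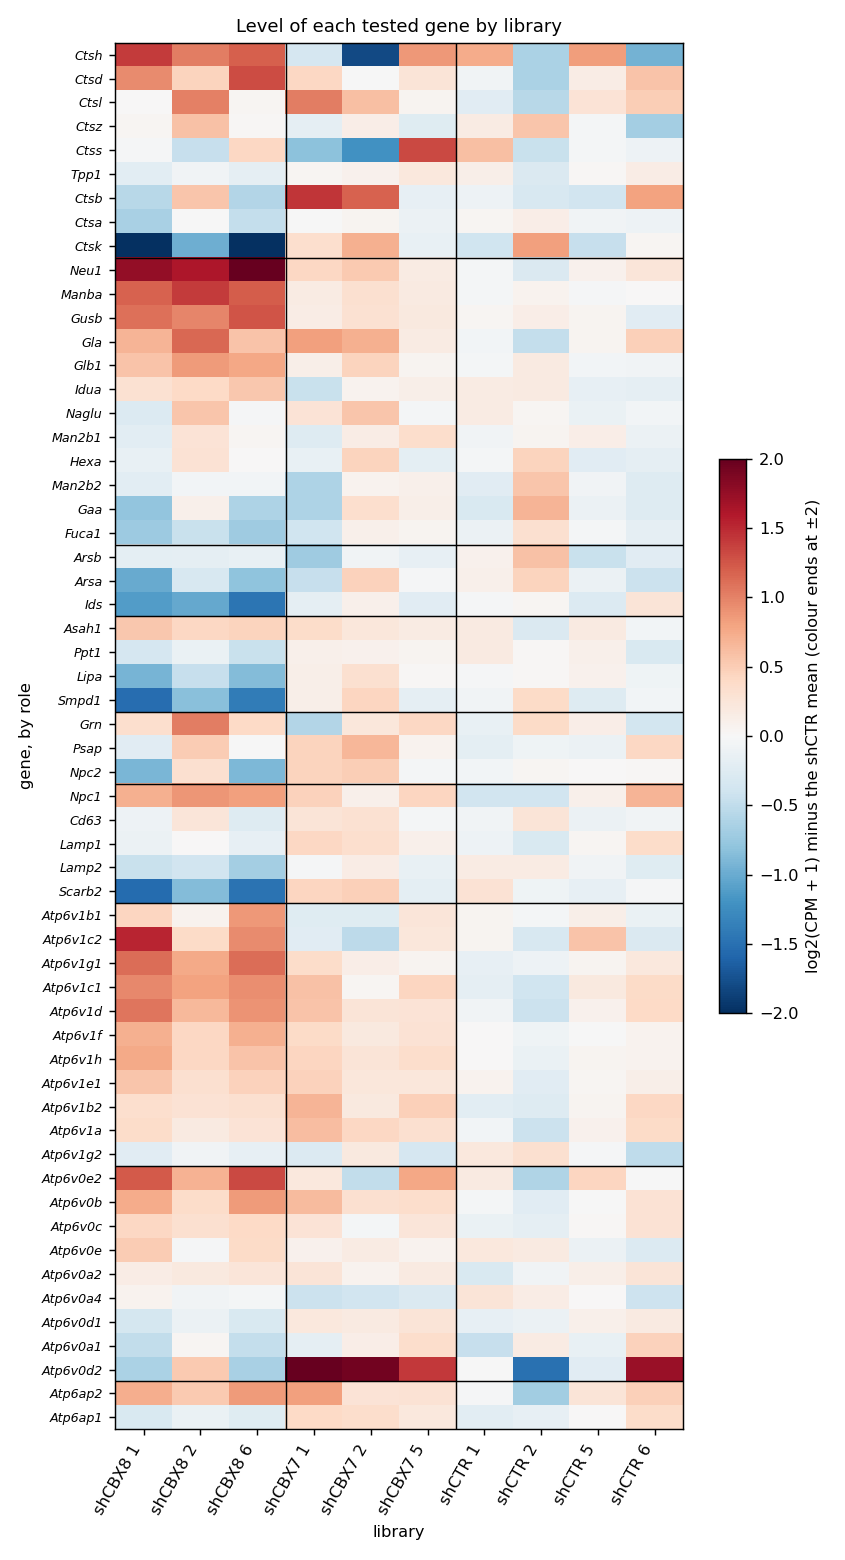
Level of the 58 tested genes (rows, by role, in the order of the fold change plot) in the 10 libraries (columns), as log2(CPM + 1) minus the mean of the 4 shCTR libraries; red is higher, blue lower, and the colour ends at 2 in either direction. The rows of Neu1, Manba and Gusb are red in all 3 shCBX8 columns and those of Ids, Smpd1 and Scarb2 blue, and most rows of the V1 sector are pale red in the shCBX7 columns too.

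Over the 21 other settings and library choices tried, Manba, Gusb, Neu1, Ids, Lipa, Scarb2 and Atp6v1f kept their calls in every one. Without shCTR 1 and 2, the shCTR libraries with the most background, 6 genes stayed higher (Manba, Glb1, Gusb, Neu1, Atp6v1g1 and Atp6v1f) and 4 lower (Ids, Smpd1, Lipa and Scarb2), and all genes gave 14.2% called in either direction. The other 6 V-ATPase calls ended there, with adjusted p from 0.0557 for Atp6v1h to 0.142 for Atp6v0e2 and log2 fold changes still between 0.35 and 0.89. They also ended with the opposite-strand receptor level as a covariate, where Atp6v1c1 fell to 0.41 and Atp6v1d to 0.51 on the log2 scale and the calls of Glb1 (adjusted p = 0.0625), Smpd1 (0.0566) and Atp6v1g1 (0.0513) were missed as well. With that covariate all genes gave 13.85% called in either direction. Gla (0.02 with the covariate), Npc1 (−0.080 with it), Asah1, Lamp2 and Fuca1 were the least stable. Gla and Npc1 ended with the loss of any shCBX8 library, and all 5 ended without shCBX8 1 or shCBX8 6, as did Atp6v1e1, Atp6v0b and Atp6v0e2, while Atp6v1d ended without shCBX8 1. Leaving out shCTR 1 or shCTR 2 ended Gla, Npc1, Asah1, Lamp2, Atp6v1e1 and Atp6v0e2, leaving out shCTR 5 ended Gla, Npc1, Lamp2 and Atp6v1e1, and leaving out shCTR 6 ended Asah1 and Atp6v0e2. Gla, Asah1 and Npc1 also ended without shCBX7 1 or shCBX7 2, and Npc1 without shCBX7 5.

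The 22 tested V-ATPase genes summed to 2926, 2572 and 2878 CPM in shCBX8 1, 2 and 6, 2979, 2529 and 2578 CPM in shCBX7 1, 2 and 5, and 1992, 1787, 2211 and 2586 CPM in shCTR 1, 2, 5 and 6. The shCBX8 and shCBX7 sums overlapped, and shCTR 6 stood with them, above 3 of those 6 libraries. The 28 hydrolases summed to 9424, 10480 and 10907 CPM in shCBX8, 11256, 9835 and 7978 CPM in shCBX7, and 7128, 6423, 7693 and 9666 CPM in shCTR. The ratio of hydrolases to V-ATPase was 3.22, 4.07 and 3.79 in shCBX8, 3.78, 3.89 and 3.09 in shCBX7, and 3.58, 3.59, 3.48 and 3.74 in shCTR. These ratios overlapped fully, so the summed balance of the enzymes against the pump did not set the groups apart although single genes did.

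**Figure D4:**
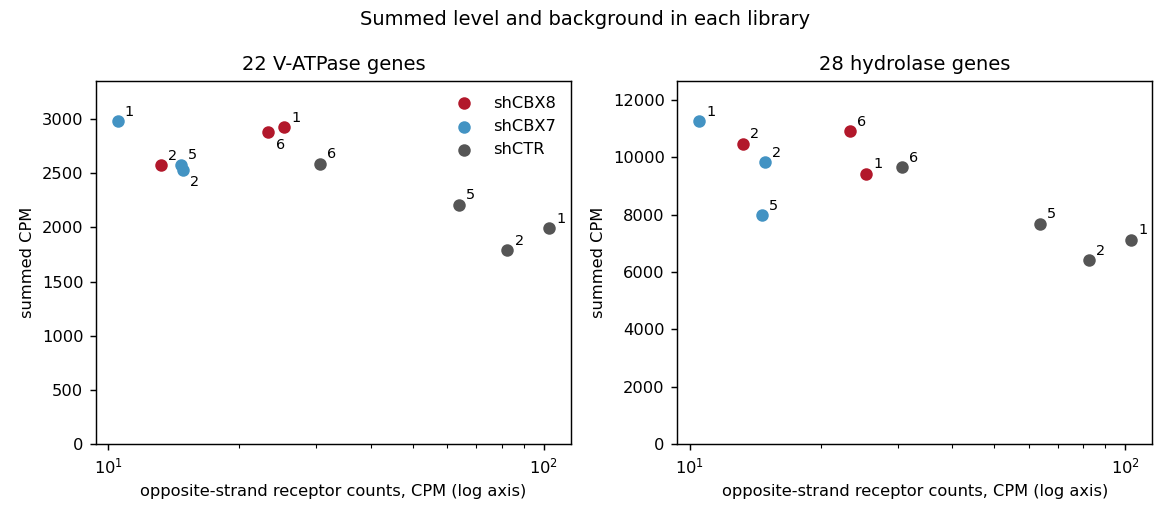
Summed CPM of the 22 V-ATPase genes (left) and the 28 hydrolase genes (right) in each library against the level of reads on the strand opposite receptor genes (log axis), with the replicate number beside each point. shCTR 6, the shCTR library with the least background at 30.7 CPM, lies beside the shCBX8 and shCBX7 libraries in both panels, at 2586 and 9666 CPM, and the other shCTR libraries lie to the right and lower.

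In shCBX7 against shCTR none of the 58 genes passed edgeR's quasi-likelihood test, as none of the 16669 did (0.0%), and DESeq2's Wald test called 91 genes but 0 of the 58. At an unadjusted p under 0.05 there were 10 of the 58, where all genes gave 5.85%: 7 V-ATPase genes (Atp6v1h, Atp6v1f, Atp6v1e1, Atp6v1b2, Atp6v1a, Atp6v0b and Atp6v0a4) and the glycosidases Manba, Neu1 and Gla. All but Atp6v0a4 were on the higher side. The smallest p was that of Atp6v1h, with 160, 141 and 151 CPM in shCBX7 1, 2 and 5 and 118, 108, 123 and 124 CPM in shCTR (0.35 ± 0.11, adjusted p = 0.593). Its groups did not overlap, which held for 6 of the 58 genes and for 5.42% of all. Atp6v1f had 88.9, 78.4 and 83.2 CPM in shCBX7 and 68.8, 64.3, 68.0 and 71.4 CPM in shCTR (0.29 ± 0.10, adjusted p = 0.669). Atp6v0a4, a kidney form of the a subunit, had 0.105, 0.148 and 0.214 CPM in shCBX7 and 0.791, 0.651, 0.498 and 0.115 CPM in shCTR (−1.68 ± 0.59, adjusted p = 0.669), where shCTR 6 lay within the range of the shCBX7 libraries.

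The fitted changes in shCBX7 leaned to the higher side without passing. Of the 58 genes 44 were above 0, as were 8337 of all 16669 tested genes. The median log2 fold change was 0.26 in the V-ATPase genes, 0.11 in the hydrolases and 0.00 in all genes. With the opposite-strand receptor level as a covariate the V-ATPase median was −0.092. The largest estimate was that of Atp6v0d2, the d isoform known from osteoclasts and kidney, with 30.6, 13.4 and 9.15 CPM in shCBX7 and 2.81, 0.35, 2.24 and 11.7 CPM in shCTR (2.04 ± 0.92, adjusted p = 0.858), and in shCBX8 it had 1.47, 4.51 and 1.44 CPM. For the 53 genes averaging at least 5 CPM, the 95% interval of the log2 fold change reached a median of 0.36 to either side in this comparison, before any adjustment over genes.

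In shCBX8 set directly against shCBX7, 14 of the 58 genes passed: 6 were higher and 8 lower in shCBX8 than in shCBX7, where all genes gave 15.3% higher and 13.3% lower. With scaling by library size alone these counts were 7 and 5, where all genes gave 18.6% higher and 9.13% lower. Neu1 had 115, 105 and 139 CPM in shCBX8 and 44.6, 48.2 and 37.5 CPM in shCBX7 (1.46 ± 0.17, adjusted p = 0.00225). Manba had 103, 120 and 106 CPM in shCBX8 and 50.7, 56.6 and 51.6 CPM in shCBX7 (1.05 ± 0.10, adjusted p = 0.00157). Gusb had 159, 146 and 178 CPM in shCBX8 and 82.1, 91.0 and 84.5 CPM in shCBX7 (0.91 ± 0.13, adjusted p = 0.00298). None of these groups overlapped, which was so for 29 of the 58 genes and for 48.2% of all genes. Glb1 (0.53), Atp6v1g1 (0.82) and Atp6v1f (0.33) were the other genes called higher.

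The genes lower in shCBX8 than in shCBX7 were Scarb2, Smpd1, Ids, Lipa, Fuca1, Ctsk, Atp6v0d1 and Atp6ap1. Scarb2 had 105, 168 and 110 CPM in shCBX8 and 415, 427 and 267 CPM in shCBX7 (−1.53 ± 0.24, adjusted p = 0.00445), and Smpd1 had 36.8, 60.3 and 40.2 CPM in shCBX8 and 117, 146 and 95.1 CPM in shCBX7 (−1.38 ± 0.24, adjusted p = 0.00626). Both were lower in every shCBX8 library. Atp6v0d1 had 80.1, 93.8 and 82.6 CPM in shCBX8 and 118, 115 and 122 CPM in shCBX7 (−0.47 ± 0.12, adjusted p = 0.0221), and Atp6ap1, a chaperone of pump assembly, had 273, 307 and 286 CPM in shCBX8 and 445, 429 and 392 CPM in shCBX7 (−0.55 ± 0.16, adjusted p = 0.0349). The shCTR means of these pump genes lay between those of shCBX8 and shCBX7. Most of the pump genes called against shCTR did not pass here: Atp6v1h gave 0.25 ± 0.12 (adjusted p = 0.154), Atp6v1e1 0.13 ± 0.13 and Atp6v0b 0.23 ± 0.18, and a p above the threshold does not show equal levels. The calls of Manba, Gusb, Neu1, Ids, Smpd1, Lipa, Scarb2 and Atp6v1g1 were kept under all 21 alternatives. Those of Fuca1, Atp6v0d1, Atp6ap1, Atp6v1f and Ctsk ended without shCBX8 1 or shCBX8 6, that of Glb1 without shCBX8 6, and Ctsk moved to −4.70 without shCBX8 2. Of the shCBX7 libraries, leaving out shCBX7 1 ended Glb1, Ctsk, Atp6v1f, Atp6v0d1 and Atp6ap1, shCBX7 2 ended Ctsk, Fuca1, Atp6v1f and Atp6ap1, and shCBX7 5 ended Glb1, Ctsk, Fuca1, Atp6v1f and Atp6v0d1. Without shCTR 5 Fuca1, Atp6ap1, Ctsk and Atp6v1f ended, without shCTR 1 or shCTR 6 Ctsk and Atp6v1f, and without shCTR 2 Atp6v1f.

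Pump isoforms were used unevenly, and the order was alike in the 3 groups. Per kilobase of exon, Atp6v1b2, the form found in most tissues, had 25.8 ± 0.45 CPM in shCBX8, 28.6 ± 4.7 CPM in shCBX7 and 21.1 ± 4.8 CPM in shCTR, while the kidney form Atp6v1b1 was below 0.3 CPM in every library. Atp6v1c1 had 28.1 ± 1.6 CPM in shCBX8, 19.4 ± 3.6 CPM in shCBX7 and 15.3 ± 3.7 CPM in shCTR (SD, n = 3, 3 and 4), far above Atp6v1c2, which reached at most 1.77 CPM and whose reads on the opposite strand equalled its own. Among the G subunits Atp6v1g1 averaged 152 CPM in shCBX8, 86.2 CPM in shCBX7 and 75.7 CPM in shCTR per kilobase, and the neuronal form Atp6v1g2 stayed below 0.66 CPM. The testis form Atp6v1e2 was at 0 in 2 shCBX8, 3 shCBX7 and 2 shCTR libraries.

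For the a subunit, which sets where the pump sits in the cell, Tcirg1 (the a form known from osteoclasts, outside the symbol pattern) had 20.6 ± 3.8 CPM per kilobase in shCBX8, 20.1 ± 2.3 CPM in shCBX7 and 16.8 ± 3.9 CPM in shCTR. Atp6v0a2 followed with 11.9 ± 0.40, 11.7 ± 0.78 and 10.5 ± 1.7 CPM per kilobase in shCBX8, shCBX7 and shCTR, and Atp6v0a1 with 7.42 ± 1.66, 9.85 ± 1.80 and 9.32 ± 2.56 CPM per kilobase in the same groups. Atp6v0a1 and Atp6v0a2 overlapped within shCTR and within shCBX7, while Tcirg1 stood above both in shCBX8 and shCBX7. Atp6v0d1 at 47.7 ± 4.1 CPM per kilobase in shCBX8, 66.0 ± 1.8 CPM in shCBX7 and 57.2 ± 6.8 CPM in shCTR exceeded Atp6v0d2 everywhere, and Atp6v0e exceeded Atp6v0e2. The e pair was closest in shCBX8, at 36.6 ± 6.7 CPM per kilobase for Atp6v0e and 17.8 ± 3.9 CPM for Atp6v0e2.

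**Figure D5:**
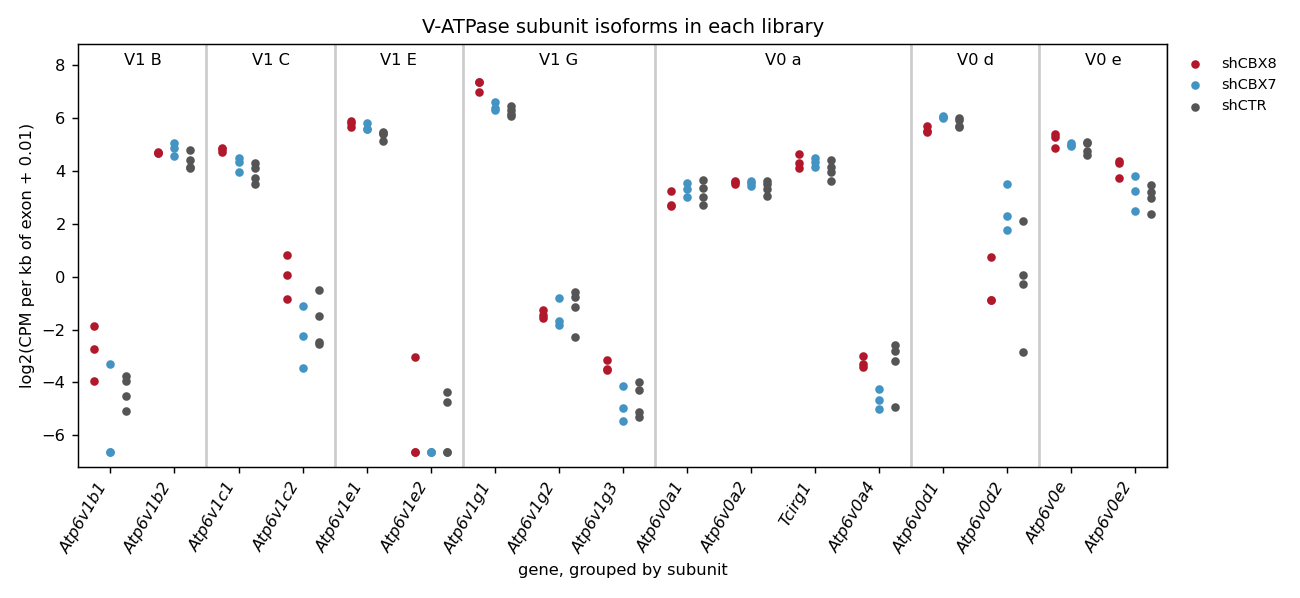
Level of each V-ATPase isoform, as log2 of CPM per kilobase of exon plus 0.01, in each library (points) of shCBX8, shCBX7 and shCTR from left to right, grouped by subunit. For B, C, E, G, d and e one isoform lies above the rest in all 10 libraries, while Tcirg1, Atp6v0a2 and Atp6v0a1 lie close together.

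Genes of the same pathway outside the set were read from lists. Of 36 other lysosomal enzymes, 6 were higher and 4 lower in shCBX8 than in shCTR (27.8% called, where all genes gave 32.9%), and 0 passed in shCBX7. Ctsw, a cathepsin known from cytotoxic lymphocytes, was low but apart, at 2.81, 1.35 and 2.84 CPM in shCBX8 and 0.119, 0.15, 0.249 and 0.489 CPM in shCTR (3.15 ± 0.51, adjusted p = 0.00366), and the cysteine cathepsin Ctsf fell to 26.6, 23.2 and 24.9 CPM in shCBX8, against 67.6, 81.3, 55.9 and 51.6 CPM in shCTR (−1.36 ± 0.22, adjusted p = 0.00377). Hgsnat, the acetyltransferase of heparan sulfate breakdown, rose by 0.98 and Ctbs, the chitobiase, by 0.88 on the log2 scale. Of 30 genes listed as other lysosomal membrane proteins 7 were higher and 8 lower, 15 called in all (50%, where all genes gave 32.9%). Among the 15, Ostm1, the partner of the chloride transporter ClC-7, rose by 1.04, while the iron transporter Slc11a2 fell by 1.06 and the channel Tmem63a by 0.82. Plin3, which the list counts although it is not a membrane protein of the lysosome, rose by 0.76.

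Of 22 sorting genes 4 rose and 2 fell (27.3% called, again beside 32.9% of all genes). M6pr, the cation-dependent mannose 6-phosphate receptor, had 332, 264 and 323 CPM in shCBX8 and 171, 162, 187 and 181 CPM in shCTR (0.81 ± 0.13, adjusted p = 0.00351). The sorting receptor Sorl1 had 47.5, 30.0 and 60.8 CPM in shCBX8 and 8.86, 9.06, 9.71 and 13.6 CPM in shCTR (2.16 ± 0.38, adjusted p = 0.00474). Gga2, an adaptor for these receptors, rose by 0.52, and Ap1m1, a subunit of the clathrin adaptor AP-1, fell by 0.73 on the log2 scale. Of 10 V-ATPase genes outside the pattern and assembly factors 3 rose and 1 fell (40% called, beside 32.9% of all genes): Dmxl2 (1.60 ± 0.24, adjusted p = 0.00285) and Dmxl1 (0.74 ± 0.20, adjusted p = 0.0214), the large rabconnectin proteins that help join the sectors, Tmem199 (1.29 ± 0.25, adjusted p = 0.00719), an assembly factor of the V0 sector, and on the lower side Oxr1 (−0.34 ± 0.10, adjusted p = 0.0331). Tcirg1 did not pass (0.29 ± 0.20).

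Cystatins, the inhibitors of the cysteine cathepsins, moved in both directions. Cstb, the cytosolic cystatin B, had 161, 144 and 147 CPM in shCBX8 and 86.9, 86.9, 95.7 and 98.9 CPM in shCTR (0.71 ± 0.10, adjusted p = 0.00266). The secreted cystatin C gene Cst3 had 103, 159 and 107 CPM in shCBX8 and 267, 580, 233 and 227 CPM in shCTR, without overlap (−1.41 ± 0.37, adjusted p = 0.0205), and Cst6 did not pass (0.32 ± 0.71). None of the 4 genes of the TFEB family passed. Tfeb itself had 5.61, 5.17 and 9.04 CPM in shCBX8 and 10.6, 12.9, 7.40 and 7.83 CPM in shCTR (−0.55 ± 0.28, adjusted p = 0.152), Tfe3 gave −0.16 ± 0.14, Mitf −1.02 ± 0.51 (adjusted p = 0.147 without and 0.00862 with the replicate block) and Tfec, below 3 CPM everywhere, 1.96 ± 0.89 (adjusted p = 0.117 without and 0.0153 with the block). In shCBX7 against shCTR 0 genes passed in any of these lists.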

How the data were processed

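Each library was a stranded one from 500 ng of total RNA (per the labels' protocols). The submitters' processing notes name bcl2fastq 2.17, Trim Galore 0.4.3, STAR 2.5.0a and the mm10 build, while for the gene annotation no release was found in the labels or notes. The authors deposited raw counts per Ensembl gene and strand for each library. The reverse-strand count was used, since forward-strand counts held 3.42 to 10.4% of stranded counts. Totals that name no gene (5.03 to 21.7% of reads unmapped, 15.4 to 22.1% mapping to several places, 12.5 to 23.6% in no gene, 0.29 to 0.637% ambiguous) stayed out. Symbols and coordinates came from GENCODE M21 (GRCm38), which matched 40217 of 41091 identifiers.

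edgeR 4.0.16 (R 4.3.3) was used: filterByExpr (minimum count 10, 16669 genes left), trimmed mean of M values scaling, and the quasi-likelihood test over all 10 libraries with hairpin as the only factor, checked on simulated data. P-values were adjusted by Benjamini-Hochberg over all genes, with 0.05 as threshold. CPM are relative to the scaled library size, SE is that of the log2 fold change, and pathway and marker lists were counted, not tested. The genes and lists were chosen with earlier results of these data known. Full values are given for up to 4 genes per role or list with the smallest p in shCBX8 against shCTR and for 3 in each other comparison. Libraries with the same number deviated together from their group means in shCBX8 and shCTR (r = 0.226, 0.294 and 0.126 for numbers 1, 2 and 6), though pairs of unlike number ran from −0.316 to 0.181 and shCBX8 6 correlated as much with shCTR 1 (0.129). Each like-numbered r being over 0.1, values with the replicate number as a block stand beside the calls they change; in shCBX7 and shCTR r was −0.07, 0.758 and 0.411 for numbers 1, 2 and 5. Alternatives were other scalings, filters and strand counts, DESeq2 1.42.0, the block, a background covariate (log2 of opposite-strand receptor CPM) and libraries left out. Libraries of 1 group differed by more than sampling noise (chi-square per degree of freedom 28.1 to 445). The 28.1 was that of shCBX8 1 and 6, which gave 242 and 265 with shCBX8 2. Pairs within the other groups gave 111 to 445. In shCBX8 against shCTR, 13.14% of all genes were called without shCBX8 1 and 13.25% without shCBX8 6. Without shCBX8 2 the share was 35.58%, so the p-values of this comparison lean on the closeness of shCBX8 1 and 6. Of their exon bases, Ctsd shares 34.4%, Ctsl 6.09%, Glb1 5.49% and Atp6v0a4 5.21% with another annotated gene on the same strand, which makes their counts less certain; the partners of Ctsd and Ctsl are not among the counted identifiers.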

Additional observations from a re-analysis of the deposited data

Results flagged for a closer look

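Of 83 genes examined in the 4 shCTR libraries, 7 had a highest library that stood apart from the others by more than Dixon's 95% critical value for 4 samples (the gap to the nearest library over the whole range); chance gives about 1 in 20 such groups. They fell in shCTR 6 and shCTR 2. In shCTR 6, Ctsb was 1766 CPM where the others had 774, 803 and 943 CPM, and Psap was 1818 CPM where the others had 1191, 1255 and 1285 CPM. In shCTR 2, Gaa, the acid alpha-glucosidase, was 331 CPM beside 167, 172 and 191 CPM, Glb1 94.1 CPM beside 79.4, 80.1 and 80.8 CPM, Cd63 272 CPM beside 210, 216 and 218 CPM, Cst3 580 CPM beside 227, 233 and 267 CPM, and Tfec 0.951 CPM beside 0.0791, 0.142 and 0.144 CPM. The fibroblast marker sum was highest in shCTR 2 as well, and shCTR 6 had the least background of the shCTR libraries; the part of either in these values was not tested.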

How the results depend on the processing

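Counts and medians are for the 58 tested genes (59 without shCTR 1 and 2). In shCBX8 against shCTR 15 genes were higher: 6 without shCTR 1 and 2, 5 with the background covariate, and 8 to 17 with 1 library left out. The share of all genes called higher went from 17.0% to 6.54%, 6.4% and 7.16 to 17.2% under the same settings. In this comparison 6 were lower, with 4 to 10 when 1 library was left out. All genes gave 15.9% lower, with 5.94 to 18.4% when 1 library was left out. The non-V-ATPase median of −0.04 became 0.15 with library size only and 0.027 without shCTR 1 and 2 (−0.16 to 0.041 with 1 library left out), and the V-ATPase median of 0.41 became 0.59 with library size only (0.34 to 0.48). In shCBX7 against shCTR 0 genes passed under every setting. The non-V-ATPase median of 0.17 became 0.23 with no filter, 0.25 with unstranded counts and 0.080 with the covariate (0.12 to 0.20 with 1 library left out), and the V-ATPase median of 0.26 turned to −0.092 with the covariate (0.19 to 0.34). In shCBX8 against shCBX7 4 to 8 were higher and 4 to 14 lower with 1 library left out, and 8 lower became 5 with library size only and 5 with no filter. All genes gave 5.84 to 17% higher and 4.53 to 17.5% lower with 1 library left out. They gave 9.13% lower with library size only and 5.26% with no filter. In that comparison the non-V-ATPase median of −0.20 became −0.044 and the V-ATPase median of 0.22 became 0.37 with library size only (−0.35 to −0.080 and 0.14 to 0.30 with 1 library left out). With the covariate Cbx8 gave −1.06 (adjusted p = 0.0839) and Cbx7 1.75 (adjusted p = 0.658); with 1 library left out they ranged from −1.40 to −1.20 and from −1.17 to −0.29. Genes not called changed sign: Arsb (0.15 without shCTR 1 and 2, 0.32 with the covariate), Psap (−0.068 and −0.61 under the same settings, −0.14 to 0.26 with 1 library left out, with −0.0055 without shCTR 1), Lamp1 (0.061 with library size only, −0.23 to 0.025 with 1 library left out), Cst6 (−0.24 without shCTR 1 and 2, −0.15 with the covariate, −0.047 to 0.57 with 1 library left out), Tfeb (0.092 with the covariate), Tfe3 (0.018 with library size only), Atp6v0a4 in shCBX7 (1.28 with the covariate) and, losing its call, Npc1 (−0.080 with the covariate). The cause was not tested.

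With the replicate block 20 of the 58 genes were higher and 8 lower in shCBX8 against shCTR, where all genes gave 18.4% higher and 17.8% lower; the calls it changed are in the text, with Atp6v1c2 (2.28, adjusted p = 0.00308) besides, and it changed no other call of a named gene there. In shCBX8 against shCBX7, which share only numbers 1 and 2, it ended the call of Atp6v1f (adjusted p = 0.0669).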
